A study of Mus musculus with 32 samples.

Results

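The 7 genes described here are among the markers most used for the M2 state of mouse macrophages: Mrc1, Chil3, Retnla, Cd163, Il10, Mgl2 and Clec10a. They were chosen by name, with no threshold on their values, from the 54446 genes counted in 32 bulk RNA sequencing libraries of mouse liver tumours. Earlier results of these data were known when they were chosen. All 7 were found in the count tables. Enough reads for a test were present for 4 of them in the dose experiment (Mrc1, Cd163, Mgl2 and Clec10a) and for 5 in each of the other experiments (the same 4 and Chil3), while Retnla and Il10 passed the filter on low counts in none of the 3.

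The tumours grew from BNL-MEA cells, a single mouse hepatocellular carcinoma line, placed in the liver of BALB/c mice, and each library was made from frozen tumour tissue, per the labels. Regorafenib, a drug taken by mouth that blocks VEGF receptors and other kinases, was given at 5 mg/kg/day, called the low dose, or at 20 mg/kg/day, called the high dose. A first set of tumours, the dose experiment, compared 4 vehicle tumours with 3 of each dose. In the DC-101 experiment there were 4 vehicle tumours, 3 at the low dose and 3 treated with DC-101, an antibody that blocks mouse VEGFR2 (800 ug on days 1, 3 and 5). The 12 tumours of the anti-PD1 experiment were divided evenly among vehicle, the low dose, an antibody against PD1 (an inhibitory receptor of T cells) and both drugs together, called the combination. Beside the cell line and the mouse strain the groups share no treatment. Each experiment is a batch of its own in the labels, so every treatment was compared with the vehicle tumours of its own experiment, and treatments of 1 experiment share those vehicle libraries. The labels do not say that the replicates came from separate mice, so the p-values measure the spread between these libraries.

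M2, or alternatively activated, macrophages are those that interleukin-4 or interleukin-13 brings about in culture through their shared receptor subunit and the transcription factor STAT6. In tumours the same genes are used to name macrophages that take up debris, remodel tissue and restrain T cells. The markers have different roles. Mrc1 (the mannose receptor CD206) and Cd163 (the receptor for haemoglobin bound to haptoglobin) are scavenger receptors of the macrophage surface. Clec10a and Mgl2 are neighbouring C-type lectins that bind galactose-type sugars, and Mgl2 is also found on dendritic cells. Chil3 (Ym1) and Retnla (Fizz1) are secreted proteins strongly induced by interleukin-4, and Il10 is a cytokine that dampens inflammation.

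All 7 are protein-coding genes with these positions in the Gencode annotation of GRCm38: Mrc1 on chromosome 2 (14229392 to 14332057, plus), Chil3 on chromosome 3 (106147554 to 106167564, minus), Retnla on chromosome 16 (48842551 to 48844461, plus), Cd163 on chromosome 6 (124304656 to 124330527, plus), Il10 on chromosome 1 (131019845 to 131024974, plus), and Mgl2 (70130329 to 70137550, plus) next to Clec10a (70156197 to 70170834, plus) on chromosome 11. Close relatives can share sequence. Of the 100-base words of their exons, 4.93% of those of Chil3 also occur in Chil4 or Gm6522, while 3.95% of those of Mgl2 and 2.64% of those of Clec10a occur in the other of that pair. The other 4 members share none.

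Promoters are shown for the secreted pair, Chil3 and Retnla, and for Cd163, because Chil3 and Cd163 had the widest differences between groups and Retnla was at 0 in most libraries. Of the 7 members, 5 matched the RefSeq promoter table (GRCm38.p6): Mrc1, Chil3, Retnla, Cd163 and Mgl2. The 250 bases before the RefSeq start are given 5′ to 3′ on the strand of the gene, and capitals mark a STAT-type palindrome. The sequences are from chr3:106167565-106167814 (minus strand) for Chil3, chr16:48842359-48842608 (plus) for Retnla and chr6:124304401-124304650 (plus) for Cd163. The RefSeq start of Retnla lies downstream of the Gencode gene start given above, so the last bases of its window are inside the Gencode gene, and motif distances count from the RefSeq start.
Chil3: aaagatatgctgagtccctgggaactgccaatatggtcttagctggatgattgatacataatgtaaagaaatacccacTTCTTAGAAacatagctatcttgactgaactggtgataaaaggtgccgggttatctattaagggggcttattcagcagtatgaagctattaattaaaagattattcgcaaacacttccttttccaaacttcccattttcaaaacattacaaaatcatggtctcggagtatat
Retnla: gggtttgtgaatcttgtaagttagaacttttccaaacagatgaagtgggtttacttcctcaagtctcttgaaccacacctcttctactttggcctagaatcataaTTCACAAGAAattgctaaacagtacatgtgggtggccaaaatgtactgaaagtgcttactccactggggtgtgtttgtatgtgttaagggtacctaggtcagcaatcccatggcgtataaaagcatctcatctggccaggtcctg
Cd163: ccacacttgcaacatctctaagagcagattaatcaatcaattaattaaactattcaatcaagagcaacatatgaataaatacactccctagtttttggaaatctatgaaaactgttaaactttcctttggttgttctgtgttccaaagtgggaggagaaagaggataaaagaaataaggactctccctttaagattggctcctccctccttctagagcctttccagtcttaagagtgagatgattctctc
The STAT forms searched, on both strands, were TTCNNNNGAA, the spacing that STAT6 prefers, and TTCNNNGAA, the spacing of other STAT proteins. Retnla held the first from 145 to 136 bases before the start and Chil3 held the second from 172 to 164 bases before it. The first is present in 5.85% and the second in 7.02% of 32851 mouse promoters of that length, and neither was in the window of Cd163, Mrc1 or Mgl2. TTGCNNAA, a C/EBP-type element present in 9.56% of promoters, was found in Retnla alone among these 5. The KLF-type form CACCC, present in 52.0% of promoters, was found at 2 places in Retnla and in none of the others, and the core of the CRE, TGACG, present in 17.8%, in none of the 5.

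Libraries held between 16.8 M and 27.7 M counted reads. Macrophage genes were present in every library: Adgre1 (F4/80) had 30.5 to 248.0 CPM and C1qa 127.0 to 1650 CPM, where CPM is the count normalised to the library total, scaled by the TMM method within an experiment. Epithelial Krt8 was between 4.54 and 414.0 CPM. Alb (albumin, made by hepatocytes) ranged from 245 to 493757 reads per library. In bulk tumour RNA, fewer cells of a type and less RNA per cell cannot be told apart.

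**Figure D1:**
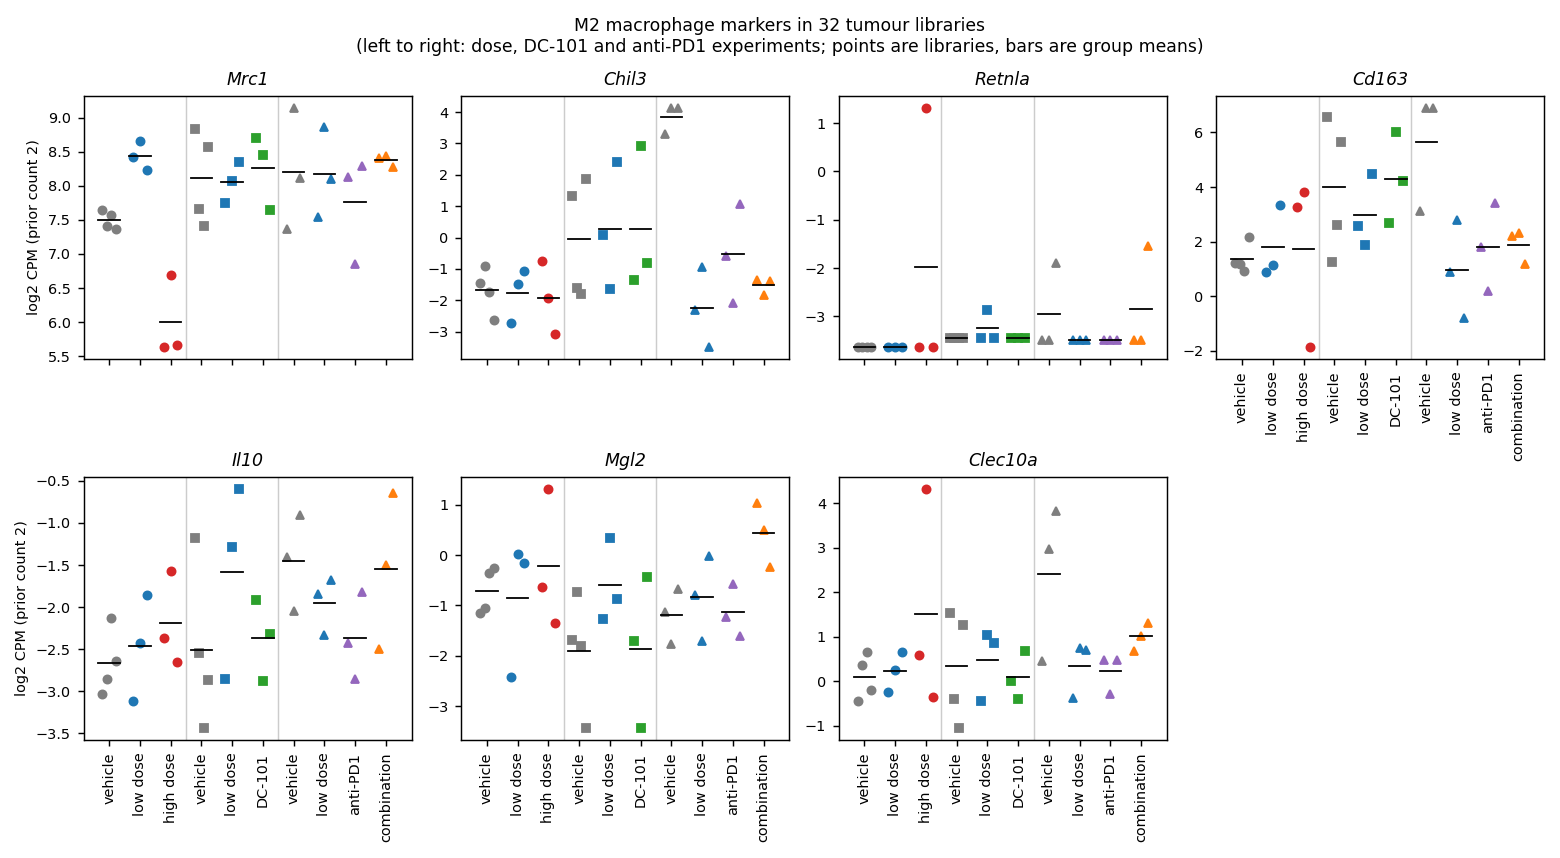
Each point is a library and each bar a group mean, on the log2 CPM scale with a prior count of 2. Groups are ordered by experiment, and libraries without a read sit at the lowest level of a panel. Mrc1 of the 3 high dose tumours lies below all other libraries, and Chil3 of the 3 anti-PD1 experiment vehicle tumours lies above all other libraries.

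Per kilobase of exon the members spanned a wide range of levels in the 11 vehicle tumours. Mrc1 had the highest median with 31.5 RPKM (range 25.9 to 89.1), and none of its vehicle values overlapped with those of the next gene. The remaining members were far lower, with medians of 1.09 RPKM for Cd163 (0.329 to 22.0), 0.44 for Clec10a (0.134 to 4.85), 0.28 for Chil3 (0.0486 to 10.8), 0.177 for Mgl2 (0 to 0.36), 0.0606 for Il10 (0 to 0.34) and 0 for Retnla (0 to 0.297). Each of these overlapped with the next in the order.

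Mrc1 spanned 11.4-fold in CPM over the 32 libraries, against 51.5-fold for Clec10a and 613.0-fold for Cd163, and it was the only member that passed a test (edgeR quasi-likelihood test, 2-sided, adjusted p under 0.05 over all genes tested). In the dose experiment vehicle tumours had 201.0, 171.0, 190.0 and 165.0 CPM of Mrc1. Low dose tumours had 344.0, 404.0 and 301.0 CPM, and high dose tumours 49.6, 104.0 and 50.5 CPM. The 3 groups did not overlap, with the low dose group above and the high dose group below vehicle (28.3% of all genes did not overlap between high dose and vehicle, and 27.8% between high and low dose). High dose against vehicle, the log2 change was -1.42 (SE 0.27, 95% interval -2.02 to -0.81, edgeR adjusted p 0.0277), a 2.67-fold lower level, and it was lower in 3 of 3 tumours. This was 1 of 4 members tested in a comparison that called 15.6% of all genes (6.82% of all genes as lower). High against low dose, Mrc1 fell by 2.36 on the log2 scale (SE 0.29, edgeR adjusted p 0.00678), which is 5.14-fold, again as 1 of 4 members where 4.22% of all genes were called (2 of 4 members and 29.3% of all genes at an unadjusted p under 0.05). Low dose against vehicle, the change was 0.94 (SE 0.26, interval 0.37 to 1.52) with an edgeR adjusted p of 0.767, and 0.42 with the macrophage covariate (the mean log2 CPM of 12 genes found in all macrophages). That comparison called 0 of 4 members and 0.0% of all genes, by edgeR, DESeq2 and voom alike for the members, with Mrc1 the only member at an unadjusted p under 0.05 (4.94% of all genes) and the only one whose groups did not overlap, as for 13.9% of all genes (6.92% of all genes in the higher direction).

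Genes found in all macrophages moved with Mrc1. Of 12 such genes, 9 fell at the high dose against vehicle and 0 rose, where 6.82% of all genes were called as lower. Their median log2 change was -1.27 beside 0.02 for all genes, and the largest falls were those of Fcgr1 (-1.85), Csf1r (-1.68) and Aif1 (-1.61). Their summed level was 983.0 to 2360 CPM in high dose, 2810 to 4690 CPM in vehicle and 5760 to 7480 CPM in low dose tumours, so these groups did not overlap either. Against the mean of those 12 genes, Mrc1 stood 0.31 ± 0.24 (SD, n = 4) log2 units higher in vehicle, 0.62 ± 0.22 (n = 3) higher in low dose and 0.02 ± 0.16 (n = 3) lower in high dose tumours. With that macrophage score as a covariate, the high dose change of Mrc1 was -0.54 (edgeR adjusted p 0.569) and that of high against low dose -0.96 (adjusted p 0.843). The high dose call against vehicle was also lost without any 1 of the 4 vehicle tumours (-1.37, -1.44, -1.40 and -1.46 without replicates 1 to 4, adjusted p 0.0815, 0.0647, 0.077 and 0.0765), with a hepatocyte score as a covariate, made in the same way from 15 hepatocyte genes (-1.26, adjusted p 0.104) and with replicate numbers as a block (-1.54, adjusted p 0.192). The summed level of 8 genes of the liver sinusoidal endothelium was 327.0 to 453.0 CPM in low dose and 180.0 to 269.0 CPM in vehicle tumours. High dose tumours, at up to 258.0 CPM, overlapped with vehicle. The median log2 changes of this list were -0.15 (low dose) and 0.55 (high dose) against vehicle, with 0 past the threshold. The part of this endothelium in the Mrc1 values was not tested.

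**Figure D2:**
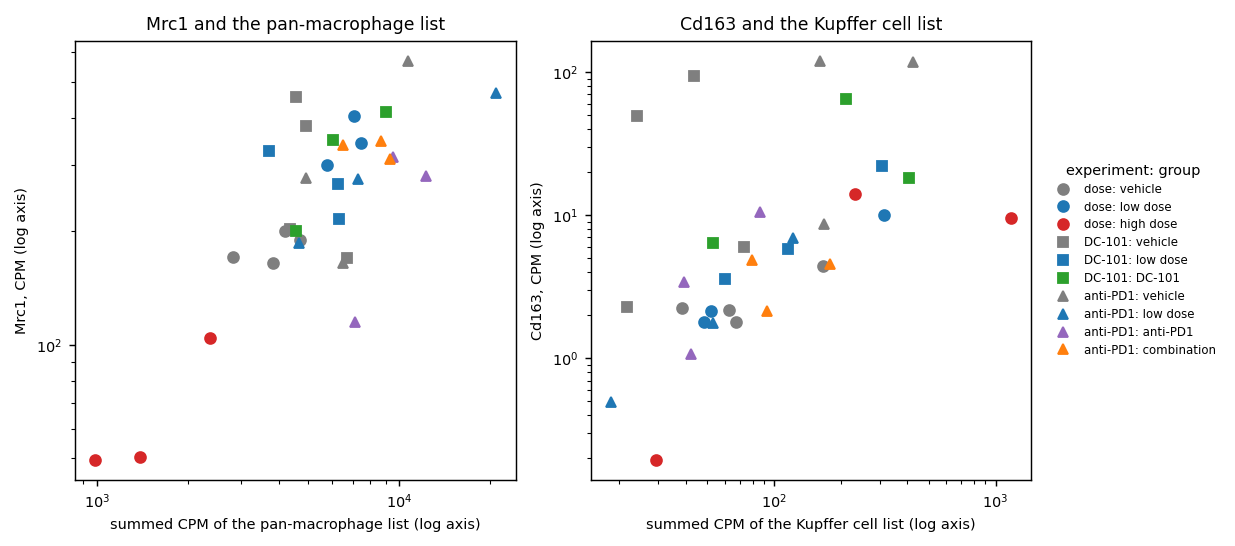
Left, Mrc1 against the summed level of 12 macrophage genes. Right, Cd163 against the summed level of 9 Kupffer cell genes. Each point is a library and all axes are logarithmic (CPM). The 3 high dose tumours are the lowest in both measures of the left panel, at 49.6 to 104.0 CPM of Mrc1 and 983.0 to 2360 CPM of the list.

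Cd163, the other scavenger receptor, was low and uneven in the dose experiment. Vehicle tumours had 2.26, 2.17, 1.8 and 4.41 CPM, low dose tumours 1.78, 2.13 and 9.96 CPM, and high dose tumours 9.56, 14.0 and 0.196 CPM. High dose replicate 3 had 5 reads of Cd163, fewer than any other of the 32 libraries, so the groups overlapped, and the log2 change was 1.57 (SE 1.03, edgeR adjusted p 0.277). The summed level of 9 genes of Kupffer cells, the resident macrophages of the liver, was 1180, 232.0 and 29.4 CPM in the same high dose tumours and 38.5 to 166.0 CPM in vehicle, and its part in the Cd163 values was not tested.

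Of the members tested, Clec10a had the widest high dose difference of the dose experiment. It had 0.658 to 1.5 CPM in vehicle, 0.769 to 1.49 in low dose and 1.41, 20.0 and 0.706 CPM in high dose tumours. Its change of 2.83 (SE 0.98, edgeR adjusted p 0.0667) rested on high dose replicate 2, without which it was 0.03. It passed under DESeq2 (adjusted p 0.011), which called 31.9% of all genes, and Clec10a and Cd163 both passed by edgeR without high dose replicate 3 (3.36 and 2.10, adjusted p 0.0148 and 0.0369), a setting that called 41.1% of all genes. In all, 2 of the 4 members, Mrc1 and Clec10a, were at an unadjusted p under 0.05 at the high dose, as were 40.1% of all genes. The sum of the 15 hepatocyte genes was 105000, 23000 and 4200 CPM in the high dose tumours and 1500 to 9100 CPM in vehicle. That of 8 lymphocyte genes was 22.3, 65.5 and 11.9 CPM in the same tumours and 5.8 to 9.8 CPM in vehicle, so it was highest in the replicate with the highest Clec10a, and 7 of the 8 were higher at an unadjusted p under 0.05 (2 after adjustment). The part of lymphocytes in the Clec10a value was not tested. Adjusted for the hepatocyte score, the high dose change was 2.26 for Clec10a and -0.75 for Cd163.

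Mgl2 was near the limit of detection in these tumours, with 7 to 19 reads in vehicle, 3 to 27 in low dose and 8 to 66 in high dose libraries. Its log2 changes were 0.15 at the low dose (SE 0.81) and 0.98 at the high dose (SE 0.80, edgeR adjusted p 0.38). Low dose changes of the other members were 0.79 for Cd163 (SE 1.03) and 0.11 for Clec10a (SE 0.98), all with an edgeR adjusted p of at least 0.991. Chil3 had 1 to 10 reads in every library of this experiment and was not tested.

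In the DC-101 experiment no member separated the groups. Mrc1 had 454.0, 203.0, 170.0 and 380.0 CPM in vehicle, 216.0, 268.0 and 327.0 in low dose and 416.0, 350.0 and 200.0 CPM in DC-101 tumours. Its log2 change was -0.16 for the low dose (SE 0.38, interval -1.01 to 0.69) and 0.09 for DC-101 (SE 0.38, interval -0.76 to 0.94). These intervals leave room for changes in either direction. The vehicle tumours alone spanned the range of the treated ones.

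Cd163 was uneven in that experiment, at 93.8, 2.27, 5.98 and 49.5 CPM in vehicle, 5.85, 3.59 and 22.1 in low dose and 6.39, 64.9 and 18.3 CPM in DC-101 tumours. Its changes were -1.85 (SE 1.35) and -0.34 (SE 1.27), and the low dose value was -0.875 without vehicle replicate 1 and -3.00 without low dose replicate 3. Chil3 showed the same kind of spread, with 55, 6, 4 and 79 reads in vehicle, 21, 5 and 92 in low dose and 7, 170 and 9 in DC-101 libraries. In vehicle both genes were high in replicates 1 and 4 and low in replicates 2 and 3, and those replicates 1 and 4 had 307 and 245 reads of Alb, against 8556 and 54738 reads in replicates 2 and 3. The 9 Kupffer cell genes summed to 21.7 to 73.2 CPM in vehicle, 60.0 to 306.0 in low dose and 52.9 to 407.0 CPM in DC-101 tumours. Their median changes were 2.83 and 2.68, with 0 past the threshold, and their part in the Cd163 values was not tested. The changes of Chil3 (0.41 and 0.79), Mgl2 (1.46 and 0.24) and Clec10a (-0.10 and -0.59) for the low dose and DC-101 had errors between 0.69 and 1.44, and every 95% interval held 0. By edgeR 0 of 5 members passed in either comparison (0.0248% and 0.0% of all genes), 0 were at an unadjusted p under 0.05 (17.1% and 13.2%), 0 had groups that did not overlap (16.4% and 13.4%), and 0 passed by DESeq2 or voom. Low dose against DC-101 also gave 0 of 5 by all 3 tools (0.0% of all genes) and 0 unadjusted (8.45%), 0 did not overlap (11.4%), and the largest value there was -1.51 for Cd163 (SE 1.39).

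The anti-PD1 experiment held the widest differences of the set, which lay between the vehicle group and each treated group. Chil3 had 9.72, 17.6 and 17.3 CPM in vehicle tumours (236, 347 and 388 reads). It had 0.113, 0.436 and 0 CPM in low dose, 0.582, 0.145 and 2.02 in anti-PD1 and 0.305, 0.189 and 0.295 CPM in combination tumours, or 0 to 42 reads in these 9. All 3 vehicle tumours lay above all 9 treated tumours. The log2 changes were -6.38 for the low dose (SE 1.06, interval -8.70 to -4.07, unadjusted p 7.35e-05 by edgeR), -4.01 for anti-PD1 (SE 0.91, p 0.000954 by edgeR) and -5.80 for the combination (SE 1.01, p 0.000113 by edgeR). After adjustment over 16615 genes the edgeR p-values were 0.246, 0.249 and 0.449, so none passed. Chil3 passed the filter on low counts here only through the vehicle tumours. Among the treated tumours just anti-PD1 replicates 1 and 3 reached the filter's minimum count of 10 (12 and 42 reads). The tests of Chil3 and its place in the counts of members below thus rest on the vehicle level.

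Cd163 had 8.65, 120.0 and 118.0 CPM in vehicle tumours. Low dose tumours had 1.77, 6.92 and 0.494 CPM, anti-PD1 tumours 3.4, 1.07 and 10.6 CPM and combination tumours 4.57, 4.85 and 2.15 CPM. Low dose and combination tumours did not overlap with vehicle, while 1 anti-PD1 tumour lay above the lowest vehicle tumour. The changes were -4.76 (SE 1.20), -4.03 (SE 1.15) and -4.42 (SE 1.18; edgeR adjusted p 0.246, 0.249 and 0.469). Clec10a had 1.28, 7.76 and 14.1 CPM in vehicle and 0.678 to 2.41 CPM in the 9 treated tumours, and its changes were -2.61, -2.78 and -1.98 (SE 0.69 to 0.71, edgeR adjusted p 0.248, 0.249 and 0.498). Vehicle replicate 1 lay within the treated range, so all 3 treated groups overlapped with vehicle, and the combination change was -1.20 without vehicle replicate 3.

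Mrc1 did not follow this pattern, at 165.0, 568.0 and 277.0 CPM in vehicle and 115.0 to 466.0 CPM in treated tumours. Its changes were -0.12, -0.51 and -0.01 (SE 0.49 each), and each treated group overlapped with vehicle.

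Mgl2 had its highest group mean of that experiment in combination tumours. It had 45, 35 and 18 reads there (1.96, 1.33 and 0.76 CPM), against 9, 4 and 12 reads in vehicle, 13, 4 and 20 in low dose and 7, 12 and 5 in anti-PD1 libraries. Combination tumours overlapped neither with vehicle (log2 change 1.84, SE 0.60, edgeR adjusted p 0.483) nor with anti-PD1 (1.78, SE 0.60, edgeR adjusted p 0.472). Clec10a was also higher in each combination tumour than in each anti-PD1 tumour (change 0.81, SE 0.69, edgeR adjusted p 0.785). Against vehicle, 3 of 8 lymphocyte and 1 of 10 dendritic cell genes were higher in combination tumours at an unadjusted p under 0.05. None were lower, and 8.2% of all genes were at that level in either direction. The list medians were 1.35 and 0.81, and the part of these cells in the Mgl2 values was not tested.

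By count, 0 of 5 members passed by edgeR or voom in each of the 3 comparisons with vehicle (0.0% of all genes in each). At an unadjusted p under 0.05 there were 3 of 5 for the low dose (11.8% of all genes), 3 of 5 for anti-PD1 (13.7%) and 4 of 5 for the combination (8.2%). Groups did not overlap for 2, 1 and 3 members (14.0%, 16.6% and 17.7% of all genes). DESeq2 called 3, 3 and 2 members (2.56%, 3.7% and 0.903% of all genes): Chil3 (adjusted p 1.05e-08, 0.000579 and 1.18e-07) and Cd163 (0.000568, 0.00623 and 0.00379) in each, and Clec10a for the low dose (0.013) and anti-PD1 (0.00745). Without the filter on low counts Chil3 passed for the low dose by edgeR (adjusted p 0.0391, 0.0302% of all genes). Combination against anti-PD1 gave 0 of 5 by edgeR, DESeq2 and voom (0.0% of all genes), 1 unadjusted, Mgl2 (8.68%, and 6.52% in the higher direction), and 2 that did not overlap (30.4%). The median log2 change of the 5 members was -2.61 for the low dose, -2.78 for anti-PD1 and -1.98 for the combination, beside 0.04, -0.06 and -0.05 for all genes.

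Marker lists of other cells were set beside these differences, and 0 genes of the lists named here passed after adjustment in the 3 comparisons with vehicle. The summed level of 9 Kupffer cell genes was 161.0 to 426.0 CPM in vehicle, 18.3 to 122.0 in low dose, 39.2 to 86.1 in anti-PD1 and 79.7 to 178.0 CPM in combination tumours, and 7, 6 and 3 of the 9 were lower at an unadjusted p under 0.05 (low dose, anti-PD1 and combination). The sum of 15 hepatocyte genes was 10100 to 13700 CPM in vehicle, 1180 to 4850 in low dose, 1060 to 3160 in anti-PD1 and 4620 to 20000 CPM in combination tumours, with 8, 14 and 0 of the 15 lower at an unadjusted p in that order. That of 10 neutrophil genes was 60.1 to 288.0 CPM in vehicle and 46.1 to 137.0 CPM over the treated tumours and overlapped, with 6, 5 and 2 of the 9 tested lower. Of 8 genes of the liver sinusoidal endothelium 7, 6 and 2 were lower at an unadjusted p, with medians of -2.235, -2.048 and -0.92, and their sum was 415.0 to 627.0 CPM in vehicle and 179.0 to 523.0 CPM in treated tumours. No gene of these lists was at 0 in all libraries. The 12 macrophage genes summed to 4900 to 10700 CPM in vehicle and 4640 to 20800 CPM in treated tumours and overlapped. Adjusted for the hepatocyte score, the low dose changes were -5.67 for Chil3, -3.95 for Cd163 and -2.95 for Clec10a. The anti-PD1 changes were then -2.82, -2.465 and -3.23 and those of the combination -5.54, -4.04 and -2.10 for the same genes. The part of Kupffer cells, endothelium and neutrophils was not tested.

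**Figure D3:**
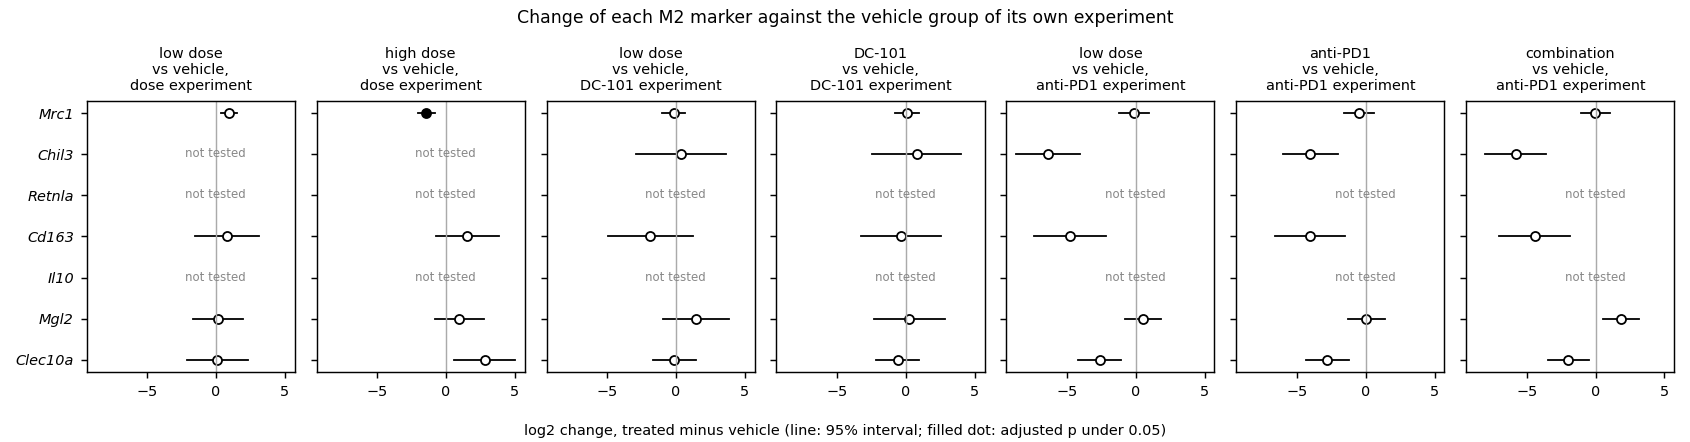
Log2 change of each member against the vehicle tumours of its own experiment, with its 95% interval (edgeR). The filled point, Mrc1 at the high dose (-1.42), is the only one past an adjusted p of 0.05. In the anti-PD1 panels the intervals of Chil3, Cd163 and Clec10a lie below 0, and treatments of 1 experiment share their vehicle tumours.

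The secreted and cytokine members at the floor of detection were Retnla and Il10. Retnla had no read in 28 of 32 libraries, and 3 reads, the limit that a count of 0 allows, correspond to 0.1 to 0.17 CPM here (counting error only). The other 4 libraries had 66 reads (high dose replicate 2), 1 read (in the DC-101 experiment, low dose replicate 2), 4 reads (in the anti-PD1 experiment, vehicle replicate 3) and 6 reads (combination replicate 3). The library with 66 reads also held the highest Clec10a (546 reads) and, with the same 66 reads, the highest Mgl2 of the series. Il10 had 0 to 13 reads, with 3 or fewer in 18 of 32 libraries, and its highest count was in combination replicate 3. Without the filter on low counts neither gene passed by edgeR in any comparison (adjusted p of at least 0.257 for Retnla and 0.504 for Il10).

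The low dose was given in all 3 experiments, and 9 low dose tumours were compared with 11 vehicle tumours with the experiment as a term. The log2 changes were -1.69 for Cd163 (SE 0.97), -0.75 for Clec10a (SE 0.51), 0.24 for Mrc1 (SE 0.25) and 0.70 for Mgl2 (SE 0.45). Without the anti-PD1 experiment the change was -0.49 for Cd163 and -0.003 for Clec10a, and without the dose experiment it was -3.13 and -1.26. By edgeR 0 of 4 members passed (1.77% of all genes), 0 were at an unadjusted p under 0.05 (16.0%), and DESeq2 and voom also called 0. The median was -0.25 beside 0.03 for all genes. Of the 12 macrophage genes, 2 were higher in the same comparison, Fcgr1 (0.73, edgeR adjusted p 0.0405) and Cd14 (0.71, edgeR adjusted p 0.0307), with 4 higher and 0 lower at an unadjusted p. Whether the change differed between experiments was tested as an interaction, in which 0 of 4 passed (0.0% of all genes, adjusted p of at least 0.459 by edgeR) and 2 were at an unadjusted p under 0.05 (9.52%), namely Cd163 (p 0.0174 by edgeR) and Clec10a (0.0351). DESeq2 and voom called 0 members there too. Cd163 was at 0.79 in the dose experiment, -1.85 beside DC-101 and -4.76 beside anti-PD1, and Clec10a was at 0.11, -0.10 and -2.61 in that order.

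The members were also set against Alb across the libraries of each experiment, on the log2 CPM scale, and 0 of 21 correlations passed after adjustment. The 3 highest Pearson's r were those of Cd163 and Chil3 in the anti-PD1 experiment (n = 12) and of Cd163 in the dose experiment (n = 10). For Cd163 in the anti-PD1 experiment r was 0.714 (permutation p 0.0091, adjusted p 0.164) and Spearman's rho 0.748 (permutation p 0.00693, adjusted p 0.146), and r was 0.726 without the 2 libraries farthest from the median Alb and 0.488 with group means removed. For Chil3 in that experiment r was 0.685 (permutation p 0.0156, adjusted p 0.164) and rho 0.671 (permutation p 0.0203, adjusted p 0.213), and r was 0.743 without 2 libraries and 0.625 with group means removed. In the dose experiment r for Cd163 was 0.686 (permutation p 0.028, adjusted p 0.196) and rho 0.612 (permutation p 0.0674, adjusted p 0.283), and r was 0.541 without 2 libraries and 0.796 with group means removed. In the DC-101 experiment r for Cd163 was -0.15 (n = 10, permutation p 0.671, adjusted p 0.796), with a rho of -0.006 (permutation p 1.0, adjusted p 1.0), and r was 0.653 without 2 libraries and -0.09 with group means removed. Mrc1 had negative values, with r -0.47 in the dose experiment (permutation p 0.163, adjusted p 0.399, rho -0.648, permutation p 0.0497, adjusted p 0.283, r -0.478 without 2 libraries and -0.257 with group means removed). In the DC-101 experiment r for Mrc1 was -0.6 (permutation p 0.073, adjusted p 0.256, rho -0.491, permutation p 0.155, adjusted p 0.362, r -0.32 without 2 libraries and -0.731 with group means removed), and in the anti-PD1 experiment 0.269 (permutation p 0.4, adjusted p 0.576, rho 0.294, permutation p 0.355, adjusted p 0.621, r 0.4 without 2 libraries and 0.1 with group means removed). For Clec10a in the anti-PD1 experiment r was 0.543 (permutation p 0.0643, adjusted p 0.256, rho 0.497, permutation p 0.102, adjusted p 0.315), 0.654 without 2 libraries and -0.123 with group means removed. Its r was 0.452 in the dose experiment (permutation p 0.169, adjusted p 0.399) and -0.463 in the DC-101 experiment (permutation p 0.171, adjusted p 0.399). Chil3 had an r of 0.067 in the DC-101 experiment (permutation p 0.848, adjusted p 0.937).

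For the 4 members kept in all experiments, the genes most alike were found by Pearson's r of log2 CPM over the 32 libraries, with experiment means removed, among 15429 genes. This is a description that shares libraries, depth and treatments. Cd163 was most like Fcna (0.907), a ficolin, Ccl24 (0.861), an eotaxin also counted among M2 genes, and Smpdl3a (0.817). Mrc1 was most like Slc9a9 (0.881), Ms4a6d (0.839) and Tlr8 (0.834), of which the last is a receptor for single-stranded RNA in the endosomes of myeloid cells. Mgl2 was most like Ccr7 (0.764), the receptor that guides dendritic cells to lymph nodes, Rhof (0.757) and Cd4 (0.726). Clec10a was most like Gda (0.833), Plscr4 (0.792) and Tmem154 (0.779). Among the members, the most alike pair on that scale was Cd163 with Clec10a (0.668), while Mrc1 with Cd163 gave 0.335 and the neighbouring genes Mgl2 and Clec10a 0.263.

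Other genes of the same programme were counted by list. Among 15 further M2 markers, 13 were tested in the dose experiment, and at the high dose Ccl22, a chemokine for T cells and dendritic cells, rose (2.55, SE 0.66, edgeR adjusted p 0.0428) while Egr2, a transcription factor induced by interleukin-4, fell by 1.29 on the log2 scale (SE 0.30, edgeR adjusted p 0.0361). That is 2 of 13, a share near the 15.6% of all genes called there. Stab1, a scavenger receptor, fell by 1.56 from low to high dose (SE 0.33, edgeR adjusted p 0.0381), as 1 of 13 where 4.22% of all genes were called. The list median at the high dose was -0.30 against vehicle. At the low dose 0 of 13 passed and the median was 0.09. There, 1 was higher and 2 lower at an unadjusted p under 0.05 (4.94% of all genes). The summed level of the 15 was 5400 to 6590 CPM in low dose, 7040 to 8480 in vehicle and 4580 to 8780 CPM in high dose tumours. Of 15 tested genes of the interleukin-4 and interleukin-13 pathway, 1 passed in any comparison, Il4ra, the receptor subunit they share, which was lower at the high than at the low dose (-0.93, SE 0.19, edgeR adjusted p 0.0375), again near the 4.22% of all genes called there. Over all genes, that comparison called 697, but 1 with the replicate block and 0 with the macrophage covariate. Of 8 genes of the interleukin-10 pathway, Il10ra, the subunit that binds the cytokine, was lower (-1.67, edgeR adjusted p 0.0419) and Hmox1, a haem-degrading enzyme, was higher (1.09, edgeR adjusted p 0.0465) in that same comparison. None of these 3 lists had a gene past the threshold in the DC-101 experiment, the anti-PD1 experiment or over 3 experiments, by edgeR, with up to 3 at an unadjusted p under 0.05 per list and direction.

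A list of genes that M2 macrophages express above M1 macrophages, which the study took from earlier literature and which contains Mrc1 and Clec10a, had 28 matched genes. At the high dose 7 fell and 1 rose against vehicle, where 15.6% of all genes were called and 6.82% as lower, with a median of -0.29 beside -1.27 for the 12 macrophage genes, and besides Mrc1 the largest falls were those of Olfm1 (-1.36) and Amz1 (-1.34). The 2582 genes called in all at the high dose became 17 with the macrophage covariate, 1 with the replicate block and 15 to 83 without any 1 vehicle tumour. High against low dose, where 4.22% of all genes were called (697, but 1 with the block and 0 with the macrophage covariate), 3 of the list were lower (Mrc1, Olfm1 at -2.12 and Cd300ld at -1.22) and 1 higher, Mmp12 (3.25, edgeR adjusted p 0.0227). Olfm1 was also the 1 gene of the list past the threshold for the low dose over 3 experiments, where it was higher (0.89, SE 0.15, edgeR adjusted p 0.00332). Of 10 M1 markers, Il1b (-2.75, SE 0.36, edgeR adjusted p 0.0143) and Cd86 (-1.27, SE 0.29, edgeR adjusted p 0.0355) fell at the high dose, and Nos2, the inducible nitric oxide synthase, was higher at the high than at the low dose (2.79, SE 0.51, edgeR adjusted p 0.0249). Il1b (-3.07, edgeR adjusted p 0.00678) and Cd86 (-1.79, edgeR adjusted p 0.0199) were lower in that comparison, so 3 of 10 passed there. At the low dose the M1 list had 0 genes past the threshold in any experiment, with medians of 0.89 in the dose, 1.31 in the DC-101 and -0.10 in the anti-PD1 experiment. The corresponding medians of the members were 0.47, -0.10 and -2.61, over 4 tested in the dose experiment and 5 in each of the others. At an unadjusted p under 0.05, 4 of 10 M1 markers were higher and 2 lower in the dose experiment (4.94% of all genes). In the DC-101 experiment 3 of 9 were higher and 0 lower (17.1%), and in the anti-PD1 experiment 0 of 10 were at that level (11.8%).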

How the data were processed

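The authors deposited 3 tables of counts per gene, 1 per experiment, made per the labels and the study's methods with cutadapt 2.4 and STAR 2.7.2a on GRCm38 with Gencode M19 from stranded poly(A) libraries. Which strand column was taken is not given in the sources used here. Counts were scaled by TMM within each experiment, so CPM of different experiments are set side by side only as values. Genes were kept by the edgeR filter (minimum count 10, total 15). Tests were edgeR 4.0.16 quasi-likelihood fits (R 4.3.3), adjusted over all genes tested (threshold 0.05), with all groups of an experiment in 1 fit. DESeq2 1.42.0, voom (limma 3.58.1), covariates (mean log2 CPM of the hepatocyte or macrophage list), a replicate block and left-out libraries were alternatives. Plots and correlations used log2 CPM with a prior count of 2 and 100000 permutations (scipy 1.17.1). The fits were also run on simulated counts. These had the same spread setting for all genes and no differences in tissue content, so that run does not describe these tumours. The members and the 13 gene lists (159 of 162 entries matched) were chosen with earlier results of these data known. A further marker and the list of its pathway are not reported here. Named were the 7 members, up to 3 list genes past the threshold in each direction and comparison, and the 3 genes most alike. The main fits did not pair the samples by replicate number. Deviations of same-numbered libraries correlated over 0.1 in 2 of 9, 4 of 9 and 6 of 18 pairs. Differently numbered libraries were not set beside them, so this count cannot decide whether the numbers pair the samples. No duplicated library was found among 36 pairs. Intervals from counts of 0 cover counting error only.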

Additional observations from a re-analysis of the deposited data

How the results depend on the processing

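The filter on low counts left out Retnla, Il10 and, in the dose experiment, Chil3, and with 3 or 4 libraries a group the fits rest on few tumours. The Mrc1 fall at the high dose was the only member call against vehicle, and it was lost under several settings. The number of members called at the high dose was 1, but 2 by DESeq2, 0 with the replicate block, 0 with the hepatocyte and 0 with the macrophage covariate, and 0 to 3 with 1 library left out. High against low dose it was 1, but 2 by DESeq2, 0 with the replicate block, 0 with the macrophage covariate and 1 to 2 with 1 library left out. In the anti-PD1 experiment it was 0, but 3 (low dose), 3 (anti-PD1) and 2 (combination) by DESeq2 and 1 (low dose) without the filter. In the other comparisons it was 0 under all settings run, and the replicate block changed no other call. The causes were not tested.

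Among all genes, calls by DESeq2 and edgeR were 85 and 0 for low dose, 5275 and 2582 for high dose and 3059 and 697 for high against low dose, 1097 and 4, 373 and 0 and 203 and 0 in the DC-101 experiment, and 425, 614, 150 and 210 against 0 in the anti-PD1 experiment. Over 3 experiments they were 892 and 276, with 100 and 0 for the interaction. The 2582 became 416 without the filter, 1349 by voom, 1 with the block, 187 with the hepatocyte and 17 with the macrophage covariate and 15 to 7030 with 1 library left out. The 697 became 309, 1 with the block, 0 with the macrophage covariate and 62 to 4488. The 4 became 12 without the filter and 0 with the block, either covariate or a library left out. The 276 became 153 without the filter, 178 with the block, 63, 17 and 407 when the dose, the DC-101 or the anti-PD1 experiment was left out and 158 to 313 with 1 library left out. Counts of 0 became 3 (low dose) with the hepatocyte covariate in the dose experiment, 10 without the filter and 10 with that covariate (low dose) and 1 and 8 (combination) in the anti-PD1 experiment, and 1 for the interaction without that experiment. With 1 library left out the interaction called 0 to 2 genes.

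Some log2 changes turned sign, none of them past the threshold. In the dose experiment these were, for the low dose, Cd163 (-0.28 with the hepatocyte covariate), Mgl2 (-0.29 by voom, -0.014 with the block, -0.034 with the hepatocyte and -0.81 with the macrophage covariate) and Clec10a (-0.10 and -1.62 with these covariates), and for the high dose Cd163 (-0.75 with the hepatocyte covariate). For the low dose in the DC-101 experiment Mrc1 was 0.13 with the block and 0.59 with the hepatocyte covariate, Chil3 was -0.11 with the macrophage covariate, and Clec10a was 0.15 by voom, 0.37 with the block, 0.84 with the hepatocyte and 0.036 with the macrophage covariate. For DC-101, Cd163 was 0.34 by voom, 0.73 with the block and 0.28 and 0.51 with the covariates, Mgl2 was -0.16 by voom, -0.11 with the block and -0.03 with the hepatocyte covariate, and Clec10a was 0.34 with the latter. For the combination Mrc1 was 0.035 without the filter, 0.16 by voom and 0.10 with the block. Over 3 experiments Mrc1 was -0.15 without the dose experiment.

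Leaving out 1 library at a time, the sign turned within these ranges. In the dose experiment they were -0.43 to 1.18 for Cd163, -0.25 to 0.65 for Mgl2 and -0.13 to 0.35 for Clec10a at the low dose and -0.35 to 1.41 for Mgl2 at the high dose. In the DC-101 experiment they were -0.36 to 0.11 for Mrc1, -1.42 to 1.16 for Chil3 and -0.42 to 0.36 for Clec10a at the low dose, and -0.11 to 0.36 for Mrc1, -1.98 to 1.54 for Chil3, -1.58 to 0.63 for Cd163 and -1.06 to 0.89 for Mgl2 with DC-101. In the anti-PD1 experiment they were -0.54 to 0.49 for Mrc1 and -0.036 to 0.89 for Mgl2 (low dose), -0.86 to 0.11 and -0.34 to 0.41 for the same genes (anti-PD1) and -0.37 to 0.60 for Mrc1 (combination).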

Other observations

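Vehicle tumours of the 3 experiments, which were scaled separately and whose differences were not tested, held different levels of several members. Chil3 was at 0.0794 to 0.457 CPM in the 4 vehicle tumours of the dose experiment, 0.194 to 3.55 CPM in the 4 of the DC-101 experiment and 9.72 to 17.6 CPM in the 3 of the anti-PD1 experiment. Cd163 was at 1.8 to 4.41, 2.27 to 93.8 and 8.65 to 120.0 CPM in the same order. For Mrc1 the ranges were 165.0 to 201.0, 170.0 to 454.0 and 165.0 to 568.0 CPM. The treated tumours of the anti-PD1 experiment had 0 to 2.02 CPM of Chil3, a range that overlaps with the vehicle tumours of the other experiments.

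In combination against anti-PD1 tumours, 0 genes of the marker lists of other cells passed after adjustment by edgeR. Of 10 dendritic cell genes, 7 were higher in combination tumours at an unadjusted p under 0.05 (6.52% of all genes), with a median log2 change of 1.86. Of 8 lymphocyte genes, 6 were higher (median 2.57), of 15 hepatocyte genes 14 (2.35), of 9 Kupffer cell genes 3 (1.32) and of 8 sinusoidal endothelial genes 1 (0.805). Of 12 macrophage and 9 tested neutrophil genes 0 were (-0.07 and 0.76). The Mgl2 change in that comparison was 1.78, and the part of these cells in it was not tested.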
